A study of Arabidopsis thaliana with 6 samples.

Results

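ABI4 (AT2G40220), EEL (AT2G41070), ABI3 (AT3G24650) and ABI1 (AT4G26080) are regulators of the abscisic acid (ABA) response in Arabidopsis thaliana seeds. They are described here as 4 of the 14958 genes paired with a probe set on 6 Affymetrix arrays. Each of the 4 was read by 1 probe set, found by locus for EEL and by the symbol in the authors' table for ABI4, ABI3 and ABI1. RefSeq places ABI4 and EEL on chromosome 2, ABI3 on chromosome 3 and ABI1 on chromosome 4. The genes were picked with the contrast of the agl67 mutant against wild type already known, so their values in that contrast are a description and carry no test.

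The study compared seeds of an agl67 (mads-box) mutant, 3 arrays, with wild-type seeds, 3 arrays, both of the Columbia-0 ecotype. All seeds of both genotypes were stratified in water, a cold imbibition that breaks dormancy, in the dark at 4 °C over 3 days. They were then moved to light at 22 °C and given 5 µM ABA during 3 hours. RNA came from ground whole seeds, so embryo, endosperm and seed coat were read together, and fewer cells of a type cannot be told apart from less RNA per cell. The titles number the samples of each genotype as biological replicates. Neither the mutant allele nor the number of mutant lines is given in the sources used here. Untreated seeds are not analysed here, so the response to ABA itself is not described.

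ABA holds seeds in the ungerminated state. In its core pathway a hormone-bound receptor blocks type 2C protein phosphatases (PP2C), of which ABI1 is a founding example, and this frees SnRK2 kinases to activate transcription factors. ABI3, a B3-domain factor, governs seed maturation and storage reserves, ABI4 is an AP2-domain factor of ABA and sugar responses, and EEL is a bZIP factor of the group that also holds ABI5. EEL is named for enhanced Em level: loss of EEL is known to raise EM1 transcript, and EEL competes with ABI5 at the promoters of Em genes.

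Array medians lay between 3.98 and 4.00 on the mutant arrays and at 3.97, 3.98 and 3.80 on wild-type arrays 1, 2 and 3. Wild-type array 3 also correlated least with the others of its genotype over all probe sets (r = 0.980 and 0.983, against 0.994 between the other two), while the mutant arrays correlated at 0.996 to 0.997. Its readings differed from the mean of the other wild-type arrays by a median of -0.14 on the log2 scale. The AGL67 probe set had log2 values of 4.15, 4.30 and 3.66 on the mutant arrays, against 8.79, 8.25 and 8.78 on the wild-type arrays (log2 difference -4.57, SE 0.21, limma adjusted p = 0.000887), so AGL67 was low in every library labelled mutant and in none labelled wild type. Of the seed storage genes used as tissue markers, 6 (CRA1, CRU2 and SESA1 to SESA4) had log2 values of 8.23 to 13.5 on mutant arrays and 9.42 to 13.8 on wild-type arrays.

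The transcription factor genes ABI4 and EEL were about 1 log2 unit higher in mutant seeds, while the phosphatase gene ABI1 and the B3 factor gene ABI3 were lower. For ABI4, ABI1 and EEL the mutant and wild-type arrays did not overlap. For ABI3 they did. Of the 4 genes, 2, ABI4 and EEL, lay past an adjusted p of 0.05 in the limma fit over all probe sets. Across the 22746 probe sets tested, 2.7% did so, 1.93% higher and 0.778% lower in the mutant. Nothing is read from this count, because the genes were picked from the same contrast.

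ABI4 had log2 expression values of 7.39, 7.68 and 7.56 on the mutant arrays, against 6.87, 6.60 and 6.31 on the wild-type arrays. Every mutant array read above every wild-type array, and the closest arrays of the 2 genotypes were 0.52 apart. The means were 7.54 ± 0.15 in mutant seeds and 6.59 ± 0.28 in wild-type seeds (SD, n = 3 each), a log2 difference of 0.95 (SE 0.16) or 1.93-fold higher in the mutant. The lowest reading was on wild-type array 3, which lay -0.43 from the mean of the other wild-type arrays, and without that array the difference was 0.81. Across all probe sets, 1.40% had a positive difference at least as large.

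EEL had log2 values of 7.52, 7.65 and 8.06 on the mutant arrays, against 6.63, 6.87 and 6.72 on the wild-type arrays. Again every mutant array was the higher, by 0.65 or more, and mutant array 3 stood above the others of its genotype. The means were 7.74 ± 0.28 in mutant seeds and 6.74 ± 0.12 in wild-type seeds (SD, n = 3 each), a log2 difference of 1.00 (SE 0.16), or 2.0-fold higher. The mutant SD was larger than that of 96.9% of probe sets on the same arrays, whereas the wild-type SD was larger than that of 28.0%. Without mutant array 3 the difference was 0.84. In contrast to ABI4, wild-type array 3 did not stand apart for EEL, at -0.03 from the mean of the other two.

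ABI1 had log2 values of 6.74, 6.48 and 6.29 on the mutant arrays, against 7.31, 7.30 and 6.99 on the wild-type arrays. All mutant arrays read lower, but the gap between the closest arrays was only 0.25. The means were 6.50 ± 0.23 in mutant seeds and 7.20 ± 0.18 in wild-type seeds (SD, n = 3 each), a log2 difference of -0.70 (SE 0.15), which is 1.62-fold lower in the mutant. Wild-type array 3 lay -0.32 from the mean of the other two, toward the mutant values, and without it the difference was -0.80. Of all probe sets, 0.950% had a negative difference at least as large.

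ABI3 had log2 values of 8.35, 8.61 and 8.71 on the mutant arrays, against 8.70, 8.98 and 9.08 on the wild-type arrays. Mutant array 3, at 8.71, read above wild-type array 1, at 8.70, so the groups overlapped. The means were 8.56 ± 0.19 in mutant seeds and 8.92 ± 0.20 in wild-type seeds (SD, n = 3 each), a log2 difference of -0.36 (SE 0.14), 1.29-fold lower, and 5.36% of probe sets had a negative difference at least as large. Wild-type array 3 lay 0.24 above the mean of the other wild-type arrays, and without it the difference was -0.28. In both genotypes array 3 had the highest ABI3 and the lowest ABI1 reading (8.71 and 6.29 in the mutant, 9.08 and 6.99 in wild type). Array 1 had the lowest ABI3 and the highest ABI1 reading in both (8.35 and 6.74, and 8.70 and 7.31). The titles do not say whether arrays of the same number were handled together, so no relation between ABI3 and ABI1 is read from this.

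**Figure D1:**
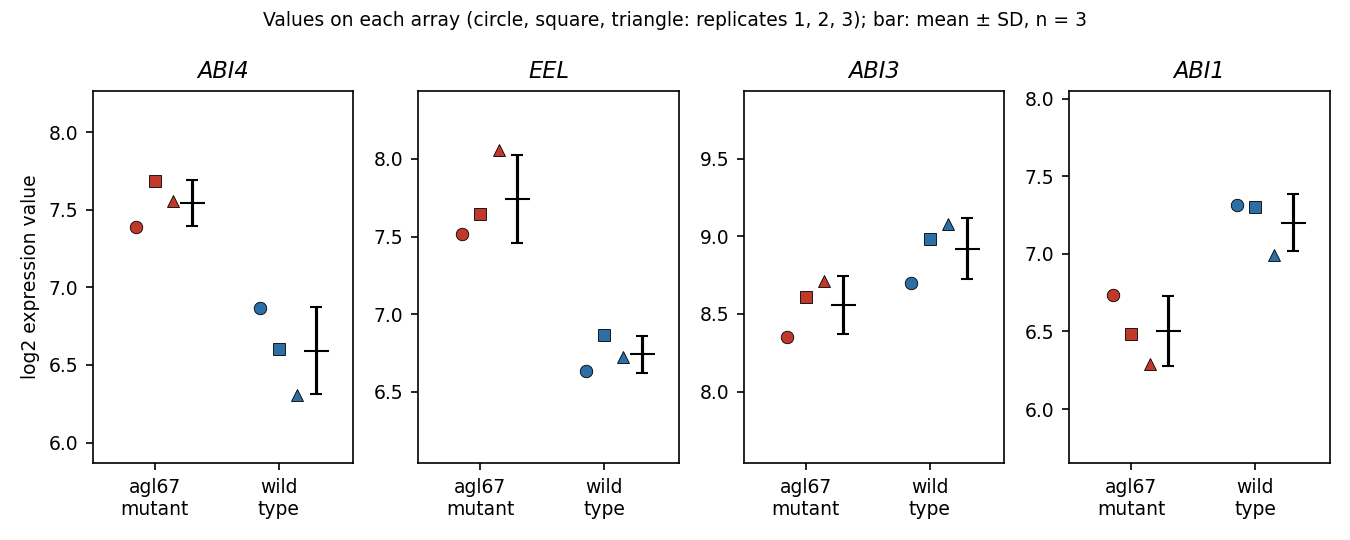
Log2 expression values of ABI4, EEL, ABI3 and ABI1 on each array, with mutant arrays left and wild-type arrays right, marker shapes for replicates 1 to 3, and bars for mean ± SD (n = 3); each panel spans the same range of log2 units. The groups are apart for ABI4, EEL and ABI1, and overlap for ABI3, where mutant array 3 (8.71) lies just above wild-type array 1 (8.70).

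Non-overlap of this kind was common. Over all probe sets the mutant arrays lay wholly above the wild-type arrays in 14.9% and wholly below in 9.16%. Among the 4 genes 2 were wholly above, ABI4 and EEL, and 1, ABI1, wholly below. The mutant arrays were the more alike, with a median SD over all probe sets of 0.104, against 0.186 in wild type, but ABI4 (SD 0.15), ABI3 (0.19), ABI1 (0.23) and EEL (0.28) all varied more than most probe sets among mutant arrays.

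The sign of the difference was the same for all 4 genes under the 15 other settings tried, while the number past the threshold was not. Without 1 array, the ABI4 difference ran from 0.81 to 1.09, that of EEL from 0.84 to 1.11, that of ABI3 from -0.47 to -0.26 and that of ABI1 from -0.82 to -0.59. The count past an adjusted p of 0.05 in limma was 0 of 4 with mutant array 1 left out (0.514% of all probe sets past it), and also 0 with mutant array 2 (0.409%), mutant array 3 (0.378%) or wild-type array 2 (0.998%) left out. It was 1 with wild-type array 1 left out (2.69%) and 3 with wild-type array 3 left out (6.73%). Subtraction of array medians gave 0.88 for ABI4, 0.93 for EEL, -0.43 for ABI3 and -0.77 for ABI1, and then 3 of the 4 genes and 3.96% of probe sets were past it. In the authors' deposited table the log2 ratios of mutant over wild type were 0.91 for ABI4, 0.93 for EEL, -0.30 for ABI3 and -0.70 for ABI1. Of the 4 genes, 1 had a false discovery rate under 0.05 in the authors' deposited table, as did 2.25% of probe sets.

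**Figure D2:**
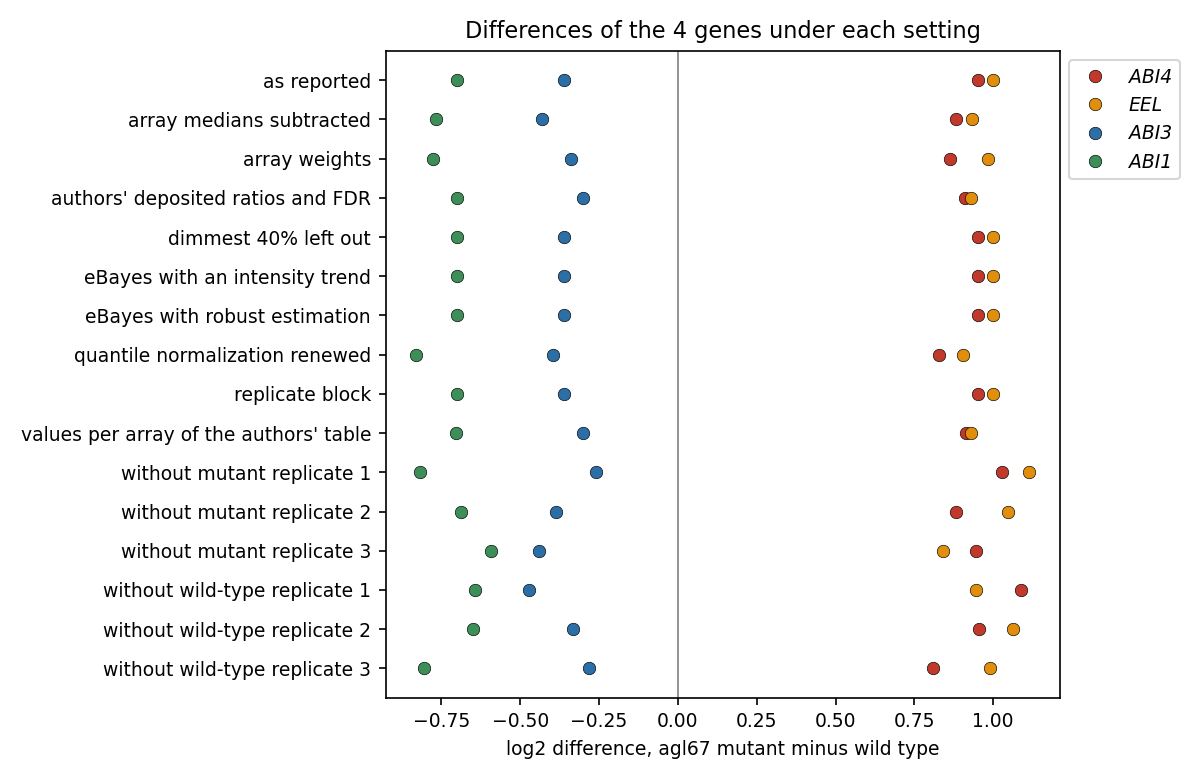
Log2 difference of mutant minus wild type for ABI4, EEL, ABI3 and ABI1 (horizontal axis) under the reported setting and 15 others (rows), 1 point per gene and setting. ABI4 and EEL stay between 0.81 and 1.11, ABI1 between -0.83 and -0.59 and ABI3 between -0.47 and -0.26.

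Genes of the same pathway were examined to see whether the rest of ABA signalling moved alongside. Of 163 listed genes, which include 4 endosperm and 5 seed coat markers, 70 were paired with a probe set and are called measured below. The 70 include 1 endosperm and 3 seed coat markers, so these counts are not of ABA signalling genes alone. Probe sets of the others may lie among the 7073 that name no gene or the 503 that name several. Of the 70, 0 rose, 2 fell and 68 did not pass in limma over all probe sets (2.86% called, against 2.36% of all genes with a probe set). The listed genes stood above 0 in 35 cases and below 0 in 35, with a median log2 difference of 0.01, against 0.02 for all genes. With wild-type array 3 left out 7 of the 70 passed, beside 5.88% of all genes with a probe set. The 14 ABA receptor genes and the 10 SnRK2 kinase genes were not paired with a probe set and are not analysed here.

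Among the phosphatases most related to ABI1, the clade A PP2Cs, 2 of 8 were measured and neither passed. The probe set that the authors' table names P2C-HA was taken as HAB1, which also restrains ABA signalling. RefSeq does not list that name for HAB1, so the match rests on general knowledge of the gene's names. It had log2 values of 7.49, 7.23 and 7.39 in mutant seeds, against 7.89, 7.79 and 7.93 in wild-type seeds. Its arrays did not overlap either, all mutant readings being the lower (log2 difference -0.50, SE 0.11, limma adjusted p = 0.0607), and it passed with wild-type array 3 left out (-0.47, adjusted p = 0.0412) and with array medians subtracted (-0.57, adjusted p = 0.0449). ABI2, another clade A phosphatase gene, had 7.44, 7.29 and 7.50 in mutant seeds, against 7.86, 7.51 and 7.21 in wild-type seeds, with overlapping groups (-0.12, SE 0.17, adjusted p = 0.781, and -0.28 with wild-type array 3 left out). Taking all probe sets that the authors' table titles protein phosphatase 2C, 67 besides ABI1, the median difference was 0.03 and none passed in limma, 10 having an unadjusted p under 0.05, which 16.4% of all probe sets had. With wild-type array 3 left out 4 of the 67 passed, beside 6.73% of all probe sets. Only 2 of the 67 had a difference as negative as that of ABI1. One of these, AT5G24940 (-0.75), had overlapping groups and a high reading of 5.14 on wild-type array 3, the other wild-type arrays being at 2.74 and 3.40. The other, an unnamed probe set, had 5.15, 4.93 and 4.89 in mutant seeds, against 6.66, 6.51 and 5.55 in wild-type seeds (-1.25, SE 0.28, limma adjusted p = 0.0644), and passed with wild-type array 3 left out (-1.59).

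Besides EEL, 7 group A bZIP genes were measured, ABI5 not among them, and none passed. Their differences ran from -0.33 for ABF3 to 0.34 for AT5G44080 (bZIP13), with a median of 0.05 that became -0.02 with array medians subtracted. ABF3 (limma adjusted p = 0.404) and ABF4, with a difference of 0.22 (adjusted p = 0.451), encode factors that bind ABA-responsive promoter elements. AREB3, the seed-expressed relative of EEL, differed by -0.05. On every array FD and AT5G42910 (bZIP15) read under the array median, where a small difference does not show that expression was unchanged. With wild-type array 3 left out the differences were 0.19 for bZIP13, 0.09 for ABF4, -0.23 for ABF3 and -0.19 for AREB3. Of 57 other probe sets titled as bZIP or basic leucine zipper factors 2 rose and 0 fell, where 1.93% of all probe sets rose and 0.778% fell. The first was bZIP44, with 6.20, 6.36 and 6.00 in mutant seeds, against 5.34, 5.08 and 4.79 in wild-type seeds (1.12, SE 0.16, adjusted p = 0.0176). It was the only one with a difference as large as that of EEL. The second was TGA4, of the TGA group of bZIP factors, with 5.38, 5.63 and 5.85 in mutant seeds, against 4.97, 4.70 and 4.70 in wild-type seeds (0.83, SE 0.15, adjusted p = 0.0336). With 1 array left out, both passed where it was wild-type array 1 or 3 (0.98 to 1.25 for bZIP44 and 0.78 to 0.92 for TGA4) and not where it was any other (1.03 to 1.21 for bZIP44 and 0.71 to 0.95 for TGA4). Both were chosen after their values were seen. GBF1, a bZIP gene that also rose and is described below, is not so titled and is not among the 57.

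ABI4 was compared in the same way with the DREB subfamily of AP2-domain factors, to which it is related. None of 9 measured DREB genes passed, and their median difference was 0.11, with array medians subtracted 0.04. RAP2.4 differed by 0.68 (SE 0.22, limma adjusted p = 0.181). Its readings were 7.15, 7.35 and 7.20 in mutant seeds, against 6.87, 6.76 and 6.01 in wild-type seeds, where array 3 was the low one, as for ABI4. Without that array RAP2.4 differed by 0.42. DREB2B, a drought-response factor gene, differed by 0.31 (adjusted p = 0.252). Of 78 probe sets titled as AP2-domain factors 1 rose (0.79, adjusted p = 0.0443) and 1 fell (-0.97, adjusted p = 0.00520), and both are unnamed. Over all probe sets 2.7% passed. Of the fits on 5 arrays, the probe set that rose passed only where wild-type array 2 or 3 was left out (0.72 to 0.93). The probe set that fell passed in all fits on 5 arrays but the one lacking mutant array 3 (-0.97). None of the 78 had a positive difference as large as that of ABI4.

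The other regulators of seed maturation set beside ABI3 were LEC1, LEC2 and L1L (the LEC1-like gene), 3 of 7 listed. None passed. L1L differed by -0.37 (SE 0.16, limma adjusted p = 0.330), LEC1 by 0.13 and LEC2 by 0.06. With wild-type array 3 left out L1L was at -0.23 and LEC1 at 0.20. The mutant and wild-type arrays overlapped for all 3. LEC2 read under the array median on every array, and L1L on every array but wild-type array 3. LEC1 read above it only on mutant array 1 and wild-type array 3. For such low readings a small difference does not show that expression was unchanged. Among 42 probe sets titled as B3-family factors none passed and 3 had an unadjusted p under 0.05, against 16.4% of all probe sets. A difference as negative as that of ABI3 was seen in 2. One of them, AT4G31680, had 2.42, 2.61 and 2.51 in mutant seeds, against 2.73, 2.92 and 3.08 in wild-type seeds (-0.40, adjusted p = 0.164).

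Genes reported to lie downstream of the 4 regulators gave calls in 1 list. Of 10 measured seed maturation genes downstream of ABI3, 2 fell and 8 did not pass, and the list median was -0.23. Of all 14958 genes with a probe set, 109 fell. SESA4, a 2S albumin storage gene, had 9.16, 8.23 and 9.16 in mutant seeds, against 10.67, 10.64 and 10.98 in wild-type seeds (-1.91, SE 0.26, limma adjusted p = 0.0130). CRU2, which encodes a 12S cruciferin, had 12.52, 12.41 and 12.60 in mutant seeds, against 13.05, 13.04 and 13.36 in wild-type seeds (-0.64, SE 0.12, adjusted p = 0.0432). Neither gene had overlapping groups, and 9.16% of all probe sets lay wholly lower in the mutant. A negative difference was seen in 8 of the 10, and in 6806 of the 14958 genes. The 8 include PER1 (-0.01) and RAB18 (-0.11), which are small. They also include SESA1 to SESA4, at the consecutive loci AT4G27140 to AT4G27170, so the 8 are not independent readings. With mutant array 1 or 3 or wild-type array 2 left out SESA4 did not pass (-2.07 to -1.98), and CRU2 passed on 5 arrays only where wild-type array 3 was the one left out (-0.54). The summed level of the 6 storage genes was 14.5 to 14.7 on mutant arrays and 14.9 to 15.2 on wild-type arrays on the log2 scale, without overlap, and its part in the values of ABI3 was not tested.

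The Em genes, LEA-protein genes bound by ABI5 and EEL, did not pass. EM1 had 12.47, 12.30 and 12.63 in mutant seeds, against 12.25, 12.17 and 12.58 in wild-type seeds (0.13, SE 0.14, limma adjusted p = 0.711). EM6 had 13.94, 13.94 and 14.00 in mutant seeds, against 13.92, 13.93 and 13.96 in wild-type seeds (0.02, SE 0.09, adjusted p = 0.934). The arrays overlapped for both. Both genes read high on every array, and whether readings this high still follow the transcript level was not tested. The small differences therefore do not show that expression was unchanged. In the same seeds EEL was 2.0-fold higher, and a relation between EEL and the Em genes was not tested.

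None of 8 measured genes reported as ABI4 targets passed. Their differences lay between -0.25 and 0.09. DGAT1, the acyltransferase gene of oil synthesis that ABI4 is known to activate in seedlings under stress, differed by -0.25 (SE 0.11, limma adjusted p = 0.314), and ARR7, a cytokinin response regulator gene, by 0.09. The starch gene APL3 (0.02) and the alternative oxidase gene AOX1A (0.03) were near 0. On every array APL3, ARR6, ARR7, ARR15, ACS4 and SBE2.2 read under the array median, while DGAT1 and AOX1A read above it. For genes with such low readings, a small difference does not show that expression was unchanged. With wild-type array 3 left out AOX1A was at -0.14 and ARR7 at 0.03.

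Of 14 measured ABA-responsive genes none passed, 7 being above 0 and 7 below, with a median of -0.02. Without wild-type array 3 the median was 0.03 and 2 of the 14 passed, beside 5.88% of all genes with a probe set. On every array COR15A, ATHB7 and ATHB12, below 0, and HVA22D and HVA22E, above 0, read under the array median. Groups did not overlap for HVA22A, ALDH7B4, RD29A (0.41), RD29B, HVA22B (0.30) and HVA22D (0.34), all higher in the mutant. RAB18 (-0.11) was wholly lower. Over all probe sets 14.9% lay wholly higher and 9.16% wholly lower. HVA22A, an ABA-induced gene, had 6.45, 6.65 and 6.46 in mutant seeds, against 5.86, 5.37 and 4.73 in wild-type seeds (1.20, SE 0.26, limma adjusted p = 0.0608), with wild-type array 3 again the lowest. It passed with wild-type array 1 (1.47) or 3 (0.90) left out and with array medians subtracted (1.13, adjusted p = 0.0290). ALDH7B4, an aldehyde dehydrogenase gene of stress responses, differed by 0.40 (SE 0.09, adjusted p = 0.0811) and passed with wild-type array 3 left out (0.43, adjusted p = 0.0380). The desiccation-response gene RD29B had 11.09, 11.07 and 11.45 in mutant seeds, against 10.58, 10.77 and 10.74 in wild-type seeds (0.50, SE 0.13, adjusted p = 0.111), with no overlap. ERD10, a dehydrin gene, read 3.37, 3.35 and 3.35 in mutant seeds, against 3.20, 3.44 and 5.21 in wild-type seeds, so its difference of -0.60 (adjusted p = 0.585) rested on wild-type array 3 and was 0.04 with that array left out.

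**Figure D3:**
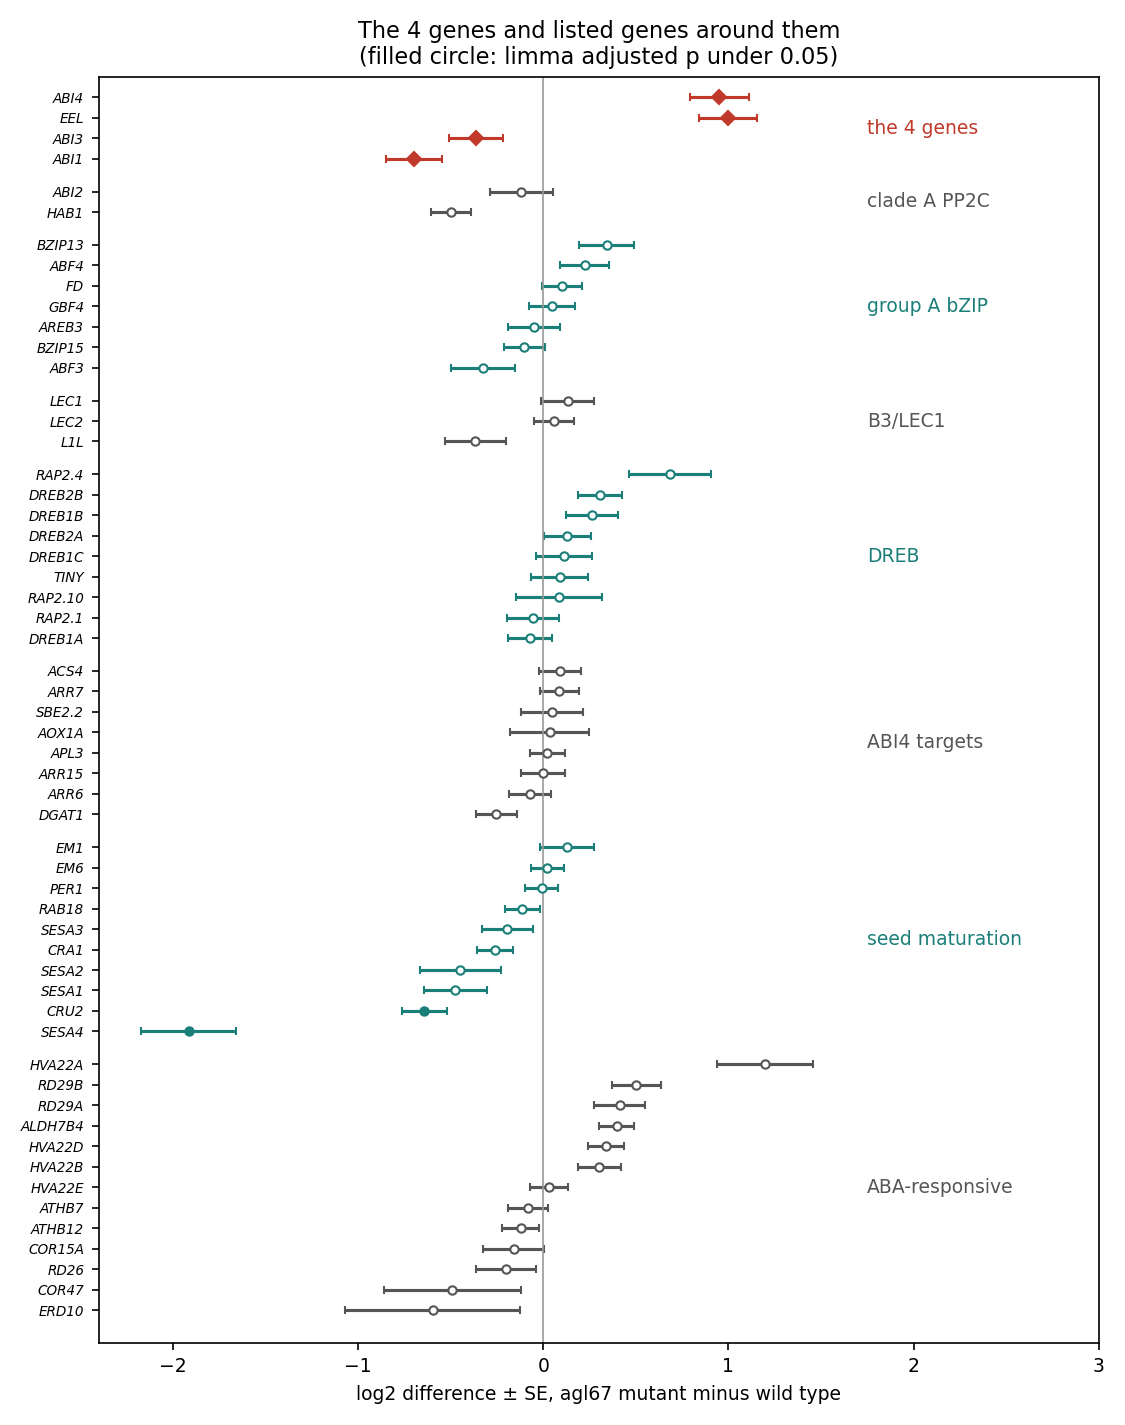
Log2 difference of mutant minus wild type with its SE (horizontal axis) for the 4 genes (red diamonds) and for measured genes of 7 lists around them, each gene drawn once. SESA4 (-1.91) and CRU2 (-0.64) are the filled circles, past an adjusted p of 0.05 in limma; no other listed gene shown passed.

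Genes that act on the 4 regulators gave no calls. Of 4 measured genes reported to control ABI3 or ABI4 transcription, WRKY6 differed by 0.48 (SE 0.14, limma adjusted p = 0.140) and passed with wild-type array 3 left out (0.57, adjusted p = 0.0290). RAV1, which encodes a repressor of ABI3, ABI4 and ABI5, differed by 0.23, and PKL, a chromatin remodelling gene that keeps embryo genes off in seedlings, by 0.08. With wild-type array 3 left out RAV1 was at 0.15 and PKL at -0.14. RAV1 read under the array median on every array, and its authors' deposited log2 ratio was 0.07. Of 13 genes for control of protein stability or activity, RPN10 (-0.19) and SIZ1 (-0.17), a SUMO ligase gene, were measured. In ABA synthesis, breakdown and transport 5 of 17 genes were measured and did not pass, AIT1, a transporter gene, having 0.35 and ABA3 -0.11. AIT1 was at 0.06 with wild-type array 3 left out, and ABA3 at 0.04 with mutant array 1 left out. Of the dormancy and germination regulators 3 of 11 were measured and none passed. DAG1, which encodes a Dof repressor of germination, differed by 0.44 (SE 0.13, adjusted p = 0.141) and passed with wild-type array 3 left out (0.52, adjusted p = 0.0385), and SPT, a bHLH gene, differed by 0.61 and by 0.31 without that array.

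Markers of other seed parts were few. EXPA2, an expansin gene of the endosperm and the only one measured of 4 endosperm markers, had 4.61, 4.31 and 4.92 in mutant seeds, against 3.62, 4.25 and 3.47 in wild-type seeds (0.84, SE 0.23, limma adjusted p = 0.127). The groups did not overlap, and its part in the values of the 4 regulators was not tested. The 3 of 5 seed coat markers measured, TT12, BAN and PER36, lay between 2.82 and 4.06 on mutant arrays and between 2.91 and 4.39 on wild-type arrays, and their differences ran from -0.16 to -0.05.

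The genes whose readings over the 6 arrays were most like those of each regulator were taken by Pearson correlation among 7249 probe sets that name 1 gene and span at least 0.5 log2 units. The arrays share the genotype difference and the low readings of wild-type array 3, so a high correlation over 6 points is a description only. ABI4 was most like AILP1 (r = 0.998), AT5G18470 (0.998), a lectin-family gene, and AT1G11860 (0.997), an aminomethyltransferase gene, and 302 probe sets reached 0.95. AT5G18470 had 7.12, 7.46 and 7.26 in mutant seeds, against 6.34, 5.89 and 5.36 in wild-type seeds (1.42, limma adjusted p = 0.0272), so its order of arrays was that of ABI4. AT1G11860 rose by 0.68 (adjusted p = 0.0319) and AILP1 differed by 0.39 (adjusted p = 0.110). On 5 arrays, AT5G18470 (1.17 to 1.66) and AT1G11860 (0.59 to 0.77) passed with wild-type array 1 or 3 left out and in no other case.

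EEL was most like GBF1 (r = 0.995), which encodes a bZIP factor that binds G-box promoter elements, then AT4G17900 (0.990) and AT1G13340 (0.987), and 84 probe sets reached 0.95. GBF1 had 7.19, 7.17 and 7.43 in mutant seeds, against 6.67, 6.77 and 6.68 in wild-type seeds (0.55, SE 0.11, limma adjusted p = 0.0458). Of the fits on 5 arrays, the one lacking wild-type array 3 passed (0.54) and the others did not (0.47 to 0.60). ABI1 was most like ERD1 (0.995), a dehydration-induced gene for a Clp protease subunit, then the autophagy gene APG9 (0.988) and AT5G64230 (0.984), and 40 probe sets reached 0.95. APG9 fell by 0.66 (adjusted p = 0.0465) and on 5 arrays passed only where wild-type array 3 was left out (-0.74), the others giving -0.76 to -0.59. ERD1 had 9.04, 8.88 and 8.83 in mutant seeds, against 9.37, 9.31 and 9.16 in wild-type seeds (-0.36, adjusted p = 0.146), and passed with wild-type array 3 left out (-0.42).

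ABI3 had the fewest close matches. Only 7 probe sets reached 0.95, led by AT1G17520 (r = 0.964), which is titled a putative DNA-binding protein gene, AT5G24080 (0.961), a protein kinase family gene, and AT5G53820 (0.956). None of these 3 passed, and their groups overlapped, as did those of ABI3.

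**Figure D4:**
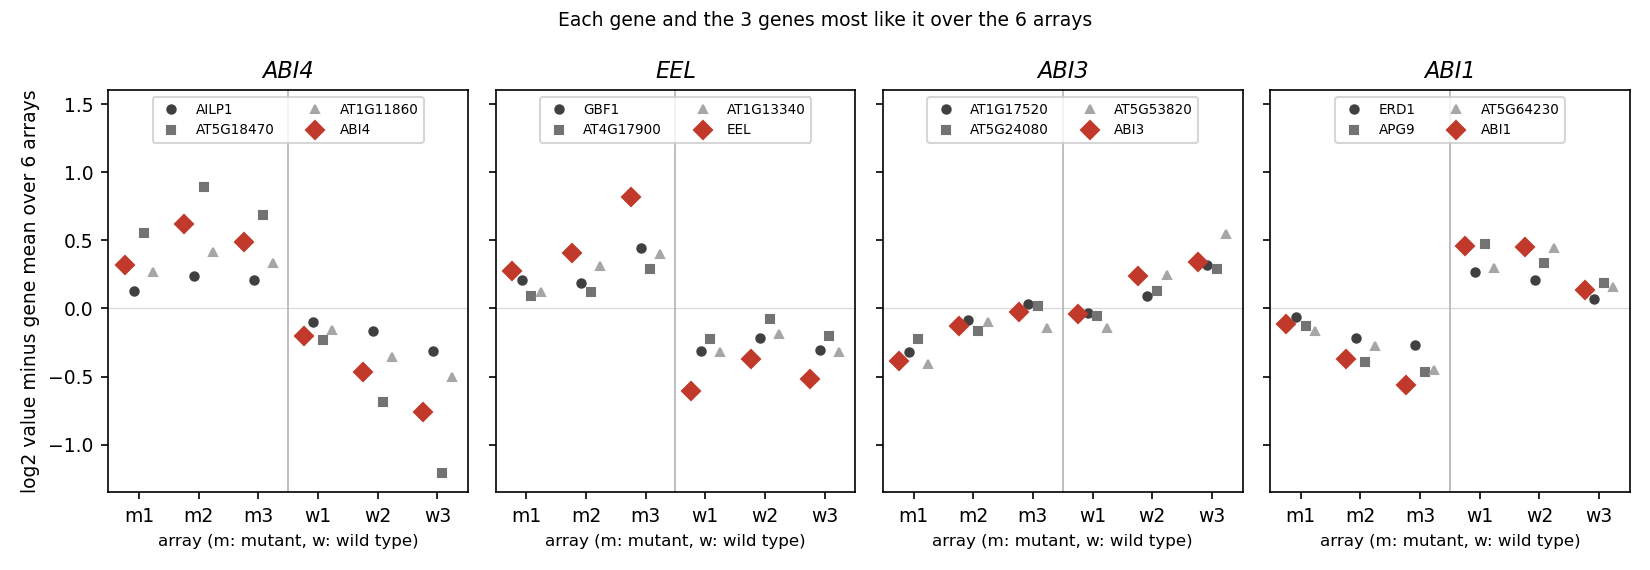
Log2 values minus each gene's mean over the 6 arrays (vertical axis) for the mutant (m1 to m3) and wild-type (w1 to w3) arrays; red diamonds are ABI4, EEL, ABI3 and ABI1 and grey symbols the 3 genes most like each. Wild-type array 3 is the lowest point of ABI4 and its matches, and mutant array 3 the highest point of EEL and its matches.

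Finally, position was considered, since the rule for choosing the 4 genes did not use it. Of the 40 nearest protein-coding genes in RefSeq order, 5 on each side of each regulator, 23 were paired with a probe set. None passed in limma, 2 having an unadjusted p under 0.05 (16.4% over all probe sets). Their median difference was 0.11. The measured neighbours of ABI4, 7 genes, ran from -0.18 to 1.03. Of the genes directly beside it, AGL48, a MADS-box gene, differed by 0.23 with overlapping groups. The other, AT2G40230, which is titled a transferase family gene, had 7.01, 7.38 and 7.21 in mutant seeds, against 6.67, 6.36 and 5.50 in wild-type seeds (1.03, SE 0.28, adjusted p = 0.126). The AT2G40230 groups did not overlap, wild-type array 3 was the lowest, as for ABI4, and the difference was 0.68 with that array left out. The measured neighbours of EEL, 7 genes, differed by -0.31 to 0.32, and the 4 of ABI3 by -0.07 to 0.19. Around ABI1, 5 measured neighbours ran from -0.39 to 0.51.

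**Figure D5:**
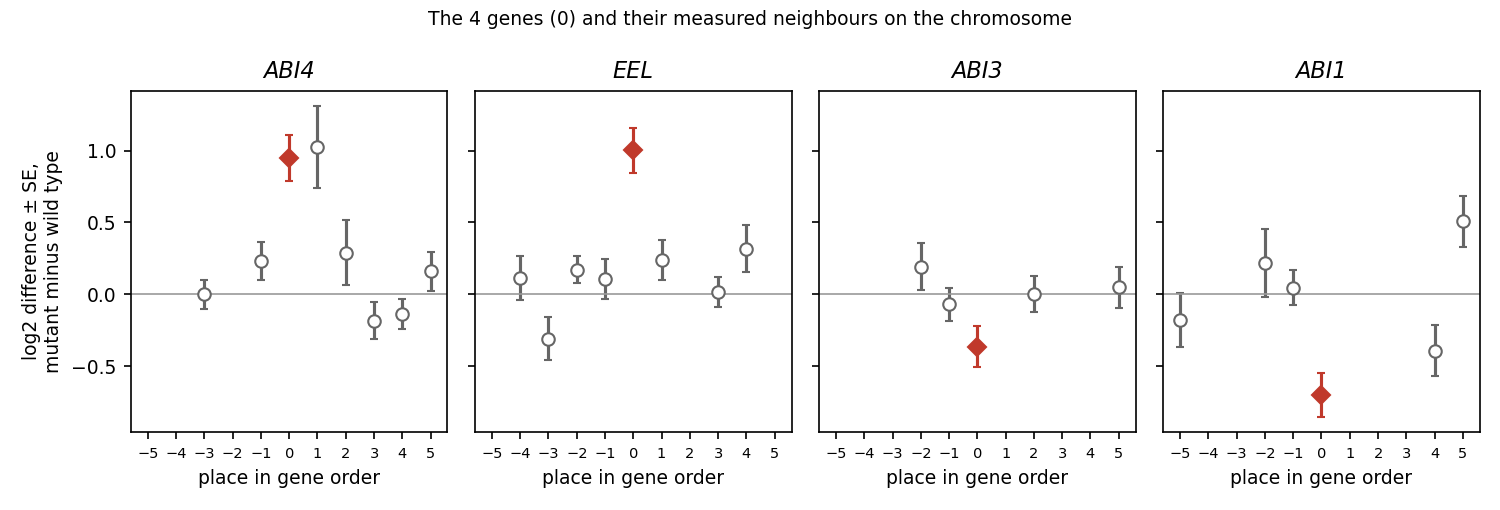
Log2 difference of mutant minus wild type with its SE (vertical axis) for ABI4, EEL, ABI3 and ABI1 (red diamonds at place 0) and for measured neighbours by place in chromosomal gene order (open circles). The neighbour at place 1 of ABI4, AT2G40230, is at 1.03; the neighbours of EEL lie between -0.31 and 0.32.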

How the data were processed

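The deposited value table gives 1 log2 expression value for each probe set on each array. RMA and limma are the tools named, without versions, per the submitters' processing notes. A second deposited table holds the authors' own comparison, with log2 ratios and limma p-values, per the file headers, and served as an alternative. The log2 values were used as given, with 64 control probe sets removed and 22746 kept.

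Probe sets were paired with genes by the platform's gene table (13367), by symbols of the authors' table looked up in RefSeq genes of assembly TAIR 10.1 (1790), or by titles for list members (13). A symbol or title pair needed a platform-named probe set of the same chromosome among the 10 closest in number. In all, 15170 probe sets name 1 gene, 503 several and 7073 none. Of a gene's several probe sets, the one of highest mean was used. The genome build is not given in the sources used here.

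Mutant minus wild type was fitted over all probe sets with lmFit and eBayes of limma 3.58.1 (R 4.3.3), genotype being the single term. Benjamini-Hochberg adjusted p-values under 0.05 counted as passing. The fit was tested on simulated data. The number of arrays limits precision. The members and the gene lists were chosen with earlier results of these data known.

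Named genes are the 4 members, AGL67, up to 4 passing genes per list (otherwise the 2 of smallest p), EM1, EM6 and the 3 genes most like each member. Title families and chromosomal neighbours were added after the data were seen. So were the names ABF4, AREB3, LEC2, APL3, AOX1A, PKL, RD29A, RD29B, ERD10 and PER36. The same holds for HVA22B, HVA22D, HVA22E, RAB18, COR15A, ATHB7, ATHB12, ARR6, ARR15, ACS4, SBE2.2, PER1, FD, bZIP15 and COR47. Replicate numbers were checked for pairing by correlating deviations from group means. Alternatives were a replicate block, each array left out, array medians subtracted, renewed quantile normalization, an intensity trend, robust estimation, array weights, the dimmest 40% left out, and the authors' values and false discovery rates.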

Additional observations from a re-analysis of the deposited data

How the results depend on the processing

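With 1 array left out, the number of probe sets past the threshold, 615, ranged from 86 to 1530. The number of listed genes past it, 2, ranged from 0 to 7, seed part markers included. Array weights gave 1490 probe sets and 7 listed genes, renewed quantile normalization 1042 and 4, an intensity trend 704 and 6, and subtraction of array medians 900 and 4. The replicate block gave 443 probe sets and 1 listed gene. Deviations of mutant and wild-type arrays of the same number correlated at -0.16, 0.14 and 0.22. These are deviations from means of 3 arrays, so they cannot tell whether arrays of the same number were handled together. With the replicate block the SE was 0.11 for ABI3 and 0.12 for ABI1, against 0.14 and 0.15 without it. For ABI4 it was 0.17 against 0.16, and for EEL 0.15 against 0.16. Differences of the 4 regulators moved by less than 1 SD between replicates, pooled over both genotypes, under all 15 settings and kept their sign. The EEL difference, 0.84 with mutant array 3 left out against 1.00, moved by more than the wild-type SD of 0.12. Over the 40 named genes with a test, 596 values under other settings held 40 that lost and 33 that gained a call, and 0 where a called gene changed sign. The causes were not tested. Of 163 listed genes 93 were not paired with a probe set, which does not mean that the array lacks them.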
